A study of Mus musculus with 24 samples.

Results

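Serotonin reaches the prefrontal cortex from neurons of the raphe nuclei in the brainstem, and its receptors decide what the transmitter does to each cortical cell. Most of them signal through G proteins. The receptors encoded by Htr1a, Htr1b, Htr1f and Htr5a couple to Gi proteins, which lower cyclic AMP. Those encoded by Htr2a and Htr2c couple to Gq proteins and phospholipase C. Those encoded by Htr4, Htr6 and Htr7 couple to Gs proteins, which raise cyclic AMP, and Htr3a encodes the exception, a subunit of a ligand-gated cation channel. These 10 serotonin receptor genes, out of 24972 genes in the tables, are described here in the medial prefrontal cortex (mPFC) of mice whose mothers had received morphine. They were taken by symbol, and the set was selected on the normalized counts of Htr1b, which were lower with morphine in both tables. The values of Htr1b between morphine and saline are therefore a description without a test.

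The study sequenced the RNA of 24 mPFC samples at postnatal day 21 (P21), 6 each of male MO, male SAL, female MO and female SAL offspring. All offspring were wild-type B6D2F1/J hybrids whose dams were C57BL/6J and whose sires were DBA/2J. Dams in the MO groups were injected once daily under the skin with morphine sulfate, beginning 1 week before breeding. Injections ended when the pups were weaned and their tissue taken at P21. The dose was 10 mg/kg, reached in steps from lower doses over the first days, and dams in the SAL groups were injected with saline. The pups themselves were not injected, and any drug reached them through the dam. From each litter 1 pup of each sex was used, after small litters had been combined. With 6 SAL dams and 6 SAL pups per sex, each SAL male library has a female library of the same litter. The same holds for most MO libraries. Which libraries pair is not given, and each is treated as 1 sample. Fits with the sexes together or between them thus treat littermates as independent, and their p-values do not allow for litter. The values are the normalized counts of the authors, made separately for each sex, so levels are not tested between the sexes. Each library summed to 14729000 to 15966600 normalized counts. Libraries bear the numbers PFC1 to PFC24, and 11 of the 24 carry the word combined in the deposited tables, for reasons not stated in the sources used here. As bulk tissue was sequenced, fewer cells of a type and less RNA per cell cannot be told apart.

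Markers of cortex were high in the samples, and markers of raphe neurons and of the choroid plexus were low. Summed normalized counts of 8 upper-layer cortical genes were between 7467 and 11304 in MO libraries of either sex and between 6356 and 11488 in SAL libraries. Those of 12 striatal projection neuron genes were not low. They were between 3323 and 10071 in MO libraries and between 3554 and 8691 in SAL libraries, highest in PFC1 and PFC16. Slc6a4, the serotonin transporter of raphe neurons, averaged 3.54 normalized counts in male MO against 3.05 in male SAL, and 2.60 in female MO against 3.16 in female SAL. Tph2, the enzyme of serotonin synthesis in neurons, averaged 18.02 in male MO against 15.5 in male SAL and 22.5 in female MO against 18.7 in female SAL (exact permutation p = 0.561 and 0.392). Ttr, the most abundant transcript of the choroid plexus, a tissue rich in Htr2c, averaged 9.50 in male MO against 4.74 in male SAL and 12.5 in female MO against 7.68 in female SAL (exact permutation p = 0.0346 and 0.245, adjusted limma p = 1.00 and 0.918). Folr1, another choroid plexus gene, averaged 1.01 in male MO against 1.12 in male SAL and 1.18 in female MO against 1.83 in female SAL. Kl, the most abundant of the choroid plexus list, averaged 34.3 in male MO against 36.8 in male SAL and 30.1 in female MO against 26.3 in female SAL. Of the 7 choroid plexus genes tested 4 had differences above 0 in males and 3 in females.

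Since Htr1b and Htr6 are the receptors that the comparisons below turn on, the start of each gene is shown with its letters. Htr1b lies at chr9:81628291-81633832 on the minus strand of GRCm38, and Htr6 at chr4:139059706-139075570, also on the minus strand. The windows run from 250 bases before to 50 bases after the RefSeq start (GRCm38.p6), 5′ to 3′ on the gene's strand, at chr9:81633783-81634082 for Htr1b and at chr4:139075521-139075820 for Htr6, and capitals mark matches to the motifs named after them.
Htr1b: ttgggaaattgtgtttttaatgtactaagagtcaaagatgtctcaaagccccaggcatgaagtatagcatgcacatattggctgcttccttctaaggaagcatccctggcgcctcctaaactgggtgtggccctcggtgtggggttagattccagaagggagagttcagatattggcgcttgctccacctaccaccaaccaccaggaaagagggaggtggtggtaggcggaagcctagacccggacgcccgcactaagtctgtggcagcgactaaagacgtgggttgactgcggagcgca
Htr6: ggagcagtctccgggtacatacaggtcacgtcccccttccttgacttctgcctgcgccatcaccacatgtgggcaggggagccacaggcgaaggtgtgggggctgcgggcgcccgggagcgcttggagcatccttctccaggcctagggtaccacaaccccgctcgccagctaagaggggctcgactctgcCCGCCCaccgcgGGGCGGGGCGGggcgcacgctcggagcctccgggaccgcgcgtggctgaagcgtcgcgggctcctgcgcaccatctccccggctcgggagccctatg
Motifs were sought on both strands with exact letters. They were the CRE core TGACG, the AP-1 site TGANTCA, the EGR site GCGTGGGCG, through which activity-regulated transcription factors act, and the GC box GGGCGG. No motif contains another. The Htr1b window held none of the 4 motifs, which says only that these letters are not in these 300 bases. The Htr6 window held 3 GC boxes. Its GC content was 71.0%, against 53.3% for Htr1b and a median of 52.7% over 32851 windows of this length. Of the 10 genes 8 had such a window. A GC box was in 4 of these 8, Htr1a, Htr1f, Htr2a and Htr6, and in 35.7% of all windows. The CRE core was in 1, Htr7, and in 20.8% of all windows, the AP-1 site in 1, Htr2c, and in 7.81%, and the EGR site in 1, Htr7, and in 0.612%. No 85-base stretch of the annotated transcripts of the 10 genes occurred in a transcript of another gene, so reads of the length used here could be told apart between them.

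All 10 receptor genes were above 0 in all 24 libraries. To compare genes, each level was divided by the length of the longest annotated transcript and is given as normalized counts per kb. The highest were Htr1a, the receptor that also acts as the autoreceptor of raphe neurons, and Htr2c. Htr1a stood at 100.4 ± 12.8 per kb in male MO, 94.4 ± 10.8 in male SAL, 87.2 ± 8.21 in female MO and 93.9 ± 9.16 in female SAL (SD, n = 6 each). Htr2c stood at 98.0 ± 8.70, 90.4 ± 8.42, 98.2 ± 20.1 and 86.0 ± 14.97 per kb in the same 4 groups. The libraries of these 2 genes overlapped in all 4 groups.

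Htr5a and Htr3a came next, at means of 59.9 to 76.3 and of 65.3 to 69.9 per kb, and their libraries overlapped in each group. Htr2a, whose receptor is best known from the dendrites of deep-layer pyramidal neurons, had means of 36.6 to 49.2 per kb and Htr7 of 36.8 to 39.6, again overlapping. Whichever of Htr2a and Htr7 was the lower stood apart from Htr6 below it in all 4 groups. Htr6 had means of 18.6 to 22.6 per kb and Htr1f of 15.5 to 16.9. The libraries of Htr6 and Htr1f overlapped in 3 groups and were apart in male MO.

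Htr1b was the ninth of the 10 genes in every group, with 7.69 ± 2.63 per kb in male MO, 10.5 ± 2.99 in male SAL, 6.39 ± 1.604 in female MO and 8.77 ± 2.21 in female SAL (SD, n = 6 each). Its libraries were apart from those of Htr1f above it in both MO groups and overlapped with them in both SAL groups. That contrast rests on the Htr1b values that chose the set. Htr4 was the lowest of the 10, at means of 4.15 to 6.64 per kb, and overlapped with Htr1b in every group. The order of the genes depends on the transcript used. For Htr1b the annotated transcripts are 1273 and 4724 bases long, and over the shorter one its levels would be 28.5 per kb in male MO, 38.8 in male SAL, 23.7 in female MO and 32.5 in female SAL. Over the shortest transcript of each gene Htr2c would stand at 519.3 to 592.7 per kb, above Htr1a in every group, and Htr4 at 16.1 to 25.7, above Htr1f in every group.

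**Figure D1:**
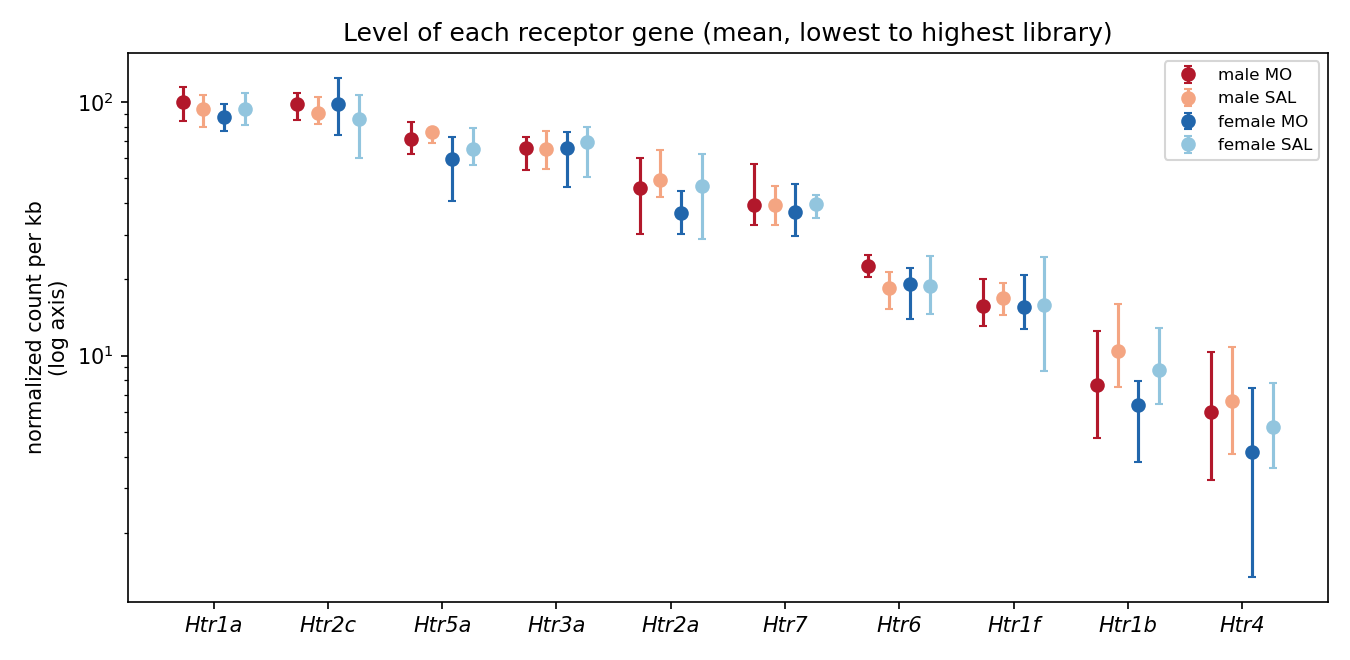
Levels of the 10 serotonin receptor genes in normalized counts per kb of the longest transcript, on a log axis, by group (points, mean of 6 libraries; bars, lowest to highest library). On this length Htr1a and Htr2c are the highest and Htr1b and Htr4 the lowest genes in each group.

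Htr1b, the gene of a receptor that sits largely on axon terminals and restrains transmitter release there, was the lower in MO in both sexes. In male MO libraries its normalized counts were 36.1 (PFC10), 59.1 (PFC11), 31.1 (PFC13), 22.3 (PFC15), 31.3 (PFC17) and 37.9 (PFC19), against 52.6 (PFC9), 50.02 (PFC12), 40.1 (PFC14), 75.2 (PFC16), 35.4 (PFC18) and 43.2 (PFC20) in male SAL libraries. The groups overlapped. Of the 6 MO libraries 5, those other than PFC11, were below the SAL mean, and 3 were below the lowest SAL library. In females, MO libraries had 17.98 (PFC1), 29.1 (PFC3), 36.0 (PFC5), 37.6 (PFC8), 25.4 (PFC21) and 35.1 (PFC23), against 42.2 (PFC2), 30.6 (PFC4), 34.8 (PFC6), 38.5 (PFC7), 41.6 (PFC22) and 60.8 (PFC24) in SAL libraries. These groups overlapped as well, with all 6 MO libraries below the SAL mean and 4 of 6 SAL libraries above the highest MO library.

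The mean of Htr1b was 36.3 ± 12.4 in male MO against 49.4 ± 14.1 in male SAL, and 30.2 ± 7.58 in female MO against 41.4 ± 10.5 in female SAL (SD, n = 6 each). On the scale of log2(value + 1) the difference MO minus SAL was -0.45 (SE 0.21) in males, -0.45 (SE 0.20) in females and -0.45 (SE 0.15) with the sexes together. The direction is the one on which the gene was chosen and was not tested. The lowest values of a library gathered near 0.782 to 1.18 normalized counts. If that step is 1 read, counting alone would give Htr1b a coefficient of variation of 13.7% to 18.1%, while 25.1% to 34.2% was measured within the 4 groups.

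**Figure D2:**
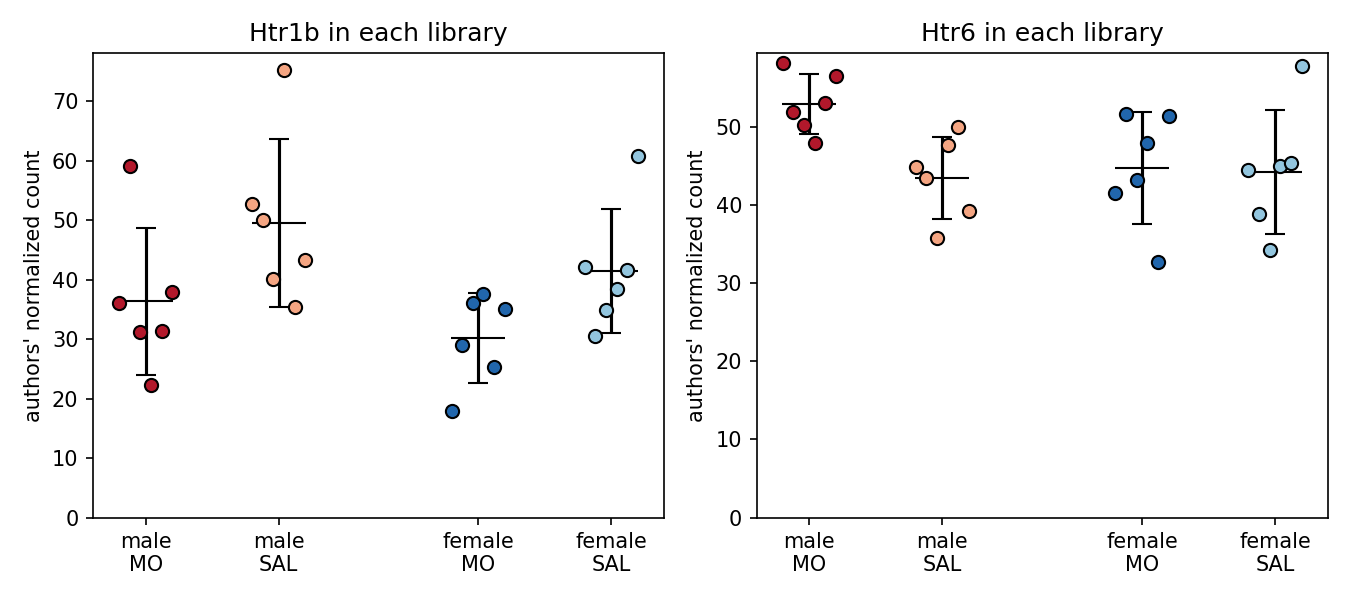
Normalized counts of Htr1b (left) and Htr6 (right) in each of the 24 libraries, MO left of SAL in males and females (points, libraries; lines and bars, mean ± SD, n = 6). For Htr1b the MO means are below the SAL means in both sexes with overlapping libraries, and for Htr6 5 of 6 male MO libraries lie above all male SAL libraries.

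The MO minus SAL difference of Htr1b was below 0 under all 21 alternative treatments of the values in each sex, and its size moved. As that direction chose the gene, its persistence is not evidence for it, and the filters on genes cannot change this difference. A pair of libraries at the edges stood out in other ways. PFC16, the highest SAL male, had summed normalized counts of 12 striatal projection neuron genes of 8691, against 3554 to 4159 in the other male SAL libraries. PFC1, the lowest MO female, had 10071, against 3599 to 4087 in the other female MO libraries. Without PFC16 the difference in males was -0.32, and without PFC1 that in females was -0.32. Without PFC11, the MO male with the highest value, the male difference was -0.60. Weighting libraries by their quality gave -0.27 in females and -0.41 in males. Among libraries not marked combined the difference was -0.63 in males (4 MO against 5 SAL) and -0.73 in females (2 MO against 2 SAL). Among those marked combined it was -0.18 in males (2 MO against 1 SAL) and -0.31 in females (4 MO against 4 SAL).

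**Figure D3:**
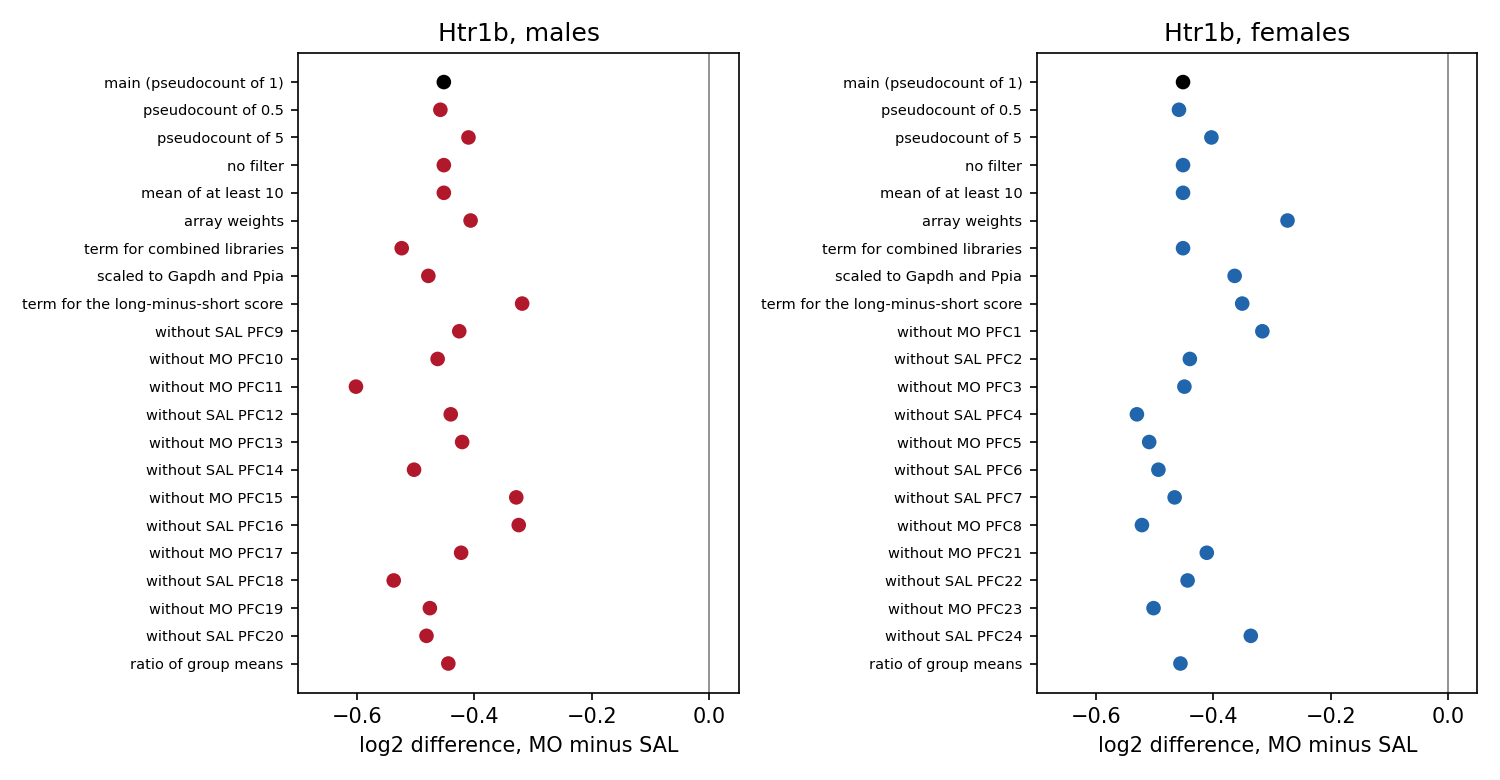
Log2 difference of Htr1b, MO minus SAL, in males (left) and females (right) under each treatment of the values and without each library in turn (points; black, as reported). All values are below 0, from -0.60 to -0.32 in males and from -0.53 to -0.27 in females, and this direction is the one that chose the gene.

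Across libraries Htr1b varied together with the balance of long and short transcripts. A score was formed for each library as the median of 1805 genes with transcripts of at least 6000 bases minus the median of 1348 genes with transcripts under 1500 bases, on the log2 scale. It ran from -0.28 to 0.16 with a median of -0.06 in male MO, against -0.09 to 0.32 with a median of -0.02 in male SAL. In females it ran from -0.41 to 0.25 with a median of 0.03 in MO, against -0.16 to 0.28 with a median of 0.02 in SAL. With each of the 4 groups centred on its own mean, Htr1b correlated with the score at r = 0.72 over 24 libraries (0.58 over the 12 males, 0.87 over the 12 females, and 0.66 without PFC1). PFC16 had the highest score of all and the highest Htr1b, and PFC1 the lowest of both, as set across tables that were normalized separately. With the score as a term, the difference of Htr1b was -0.32 in males and -0.35 in females. The part of the score in the difference was not tested beyond this.

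**Figure D4:**
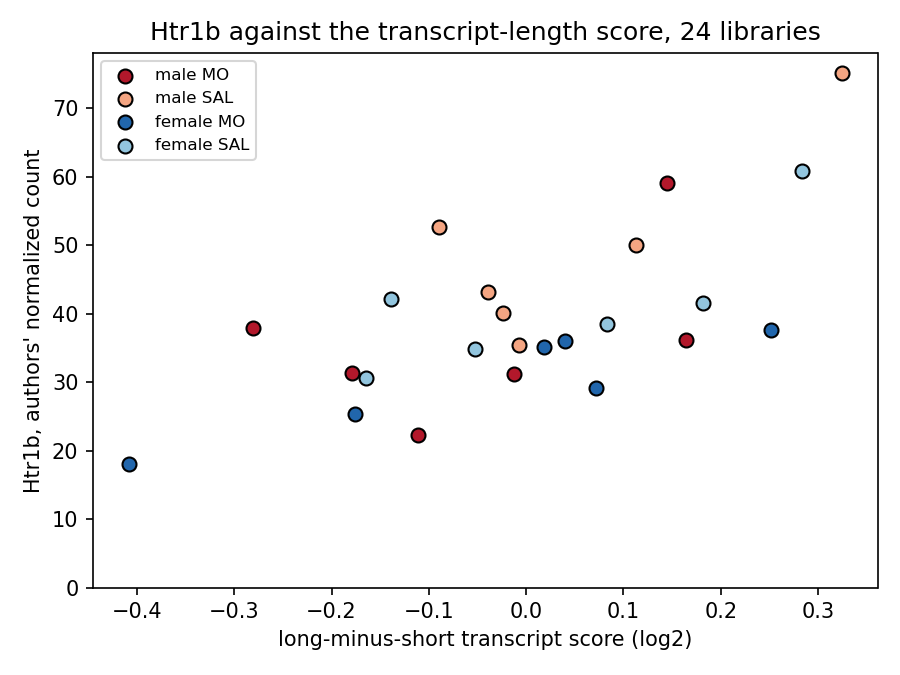
Htr1b in normalized counts against the long-minus-short transcript score (log2) in each of the 24 libraries, by group. The score runs from -0.41 in PFC1 to 0.32 in PFC16, which are also the libraries with the lowest and the highest Htr1b.

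Genes whose pattern was much like that of Htr1b, among those with a mean of at least 50 in each table, were Xpo6 (r = 0.86, group-centred, 24 libraries), Zfp609 (0.85), Pip4k2b (0.82) and Zfp532 (0.82). Xpo6 encodes an exportin for actin and Pip4k2b a lipid kinase. The most opposite were Vmac (r = -0.84), Rras2 (-0.83), a small GTPase, and Ift27 (-0.80), a part of the transport system of cilia. These correlations are a description over libraries that share 1 processing, and the genes were picked for them. These 4 genes had small differences between MO and SAL. Xpo6 averaged 1239 in male MO against 1262 in male SAL and 1131 in female MO against 1195 in female SAL, and the log2 differences of the 4 were between -0.04 and -0.00080 in males and between -0.08 and -0.05 in females. Of the opposite genes, Rras2 averaged 417.8 in male MO against 361.3 in male SAL and 450.3 in female MO against 381.1 in female SAL, log2 differences of 0.21 and 0.23, while Vmac differed by 0.14 and -0.02 and Ift27 by -0.00063 and 0.07 in males and females. The median correlation with Htr1b was -0.43 among 1348 genes with transcripts under 1500 bases, -0.13 among 3512 of 1500 to 3000 bases, 0.19 among 4851 of 3000 to 6000 bases and 0.48 among 1805 of at least 6000 bases.

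Among the receptor genes, Htr1b was most like Htr5a over 24 libraries (r = 0.60), followed by Htr2a (0.50) and Htr6 (0.50), and was opposite to Htr7 (-0.33). By sex, Htr7 was opposite in males alone, at -0.59 against 0.04 in females. Htr5a stood at 0.64 in males and 0.67 in females, Htr2a at 0.73 and 0.27, and Htr6 at 0.32 and 0.67. Of the 45 pairs of receptor genes 33 had a correlation above 0, with a median of 0.18. Htr5a followed the transcript score as Htr1b did (r = 0.75). Htr3a, which in cortex marks a class of interneurons, correlated at 0.75 with the mean of 10 genes of that class and at 0.21 with the score. The correlation of Htr3a with the score was -0.30 in males, 0.47 in females and -0.01 without PFC1. Htr3a also correlated at 0.53 with upper-layer genes and at 0.46 with markers of Pvalb and Sst interneurons. Htr5a correlated at 0.68 with the same 10 genes.

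Tests of MO against SAL were made on the other 9 receptor genes within a fit of all genes. Over all genes none passed an adjusted p of 0.05 in limma, among males (0% of 16662), among females (0% of 16717) or with the sexes together (0% of 17303), with smallest adjusted p of 1.00, 0.918 and 0.847. At an unadjusted p under 0.05 there were 475 male genes (2.85%), 490 female genes (2.93%) and 816 with the sexes together (4.72%). The 475 were 222 higher and 253 lower in MO, and the 490 were 302 higher and 188 lower. With libraries scaled to Gapdh and Ppia these were 97 higher and 193 lower in males and 623 higher and 47 lower in females. Of the 9 receptor genes 1, Htr6, had an unadjusted p under 0.05 in males, with 0 in females and 0 with the sexes together. The median log2 difference of the 9 was -0.03 in males and -0.11 in females, beside -0.00023 and 0.0018 over all genes.

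**Figure D5:**
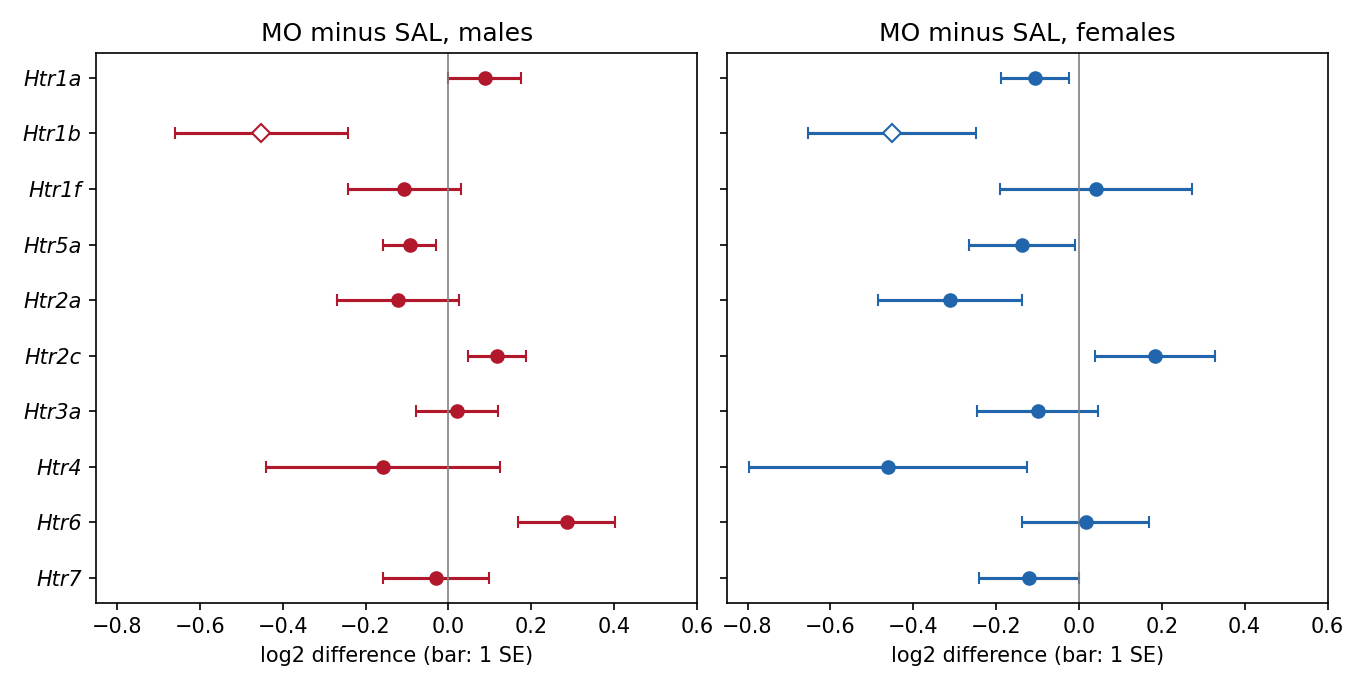
Log2 difference MO minus SAL of the 10 receptor genes in males (left) and females (right), from the fit over all genes (points, difference; bars, 1 SE; open diamond, Htr1b, for which no test is given). Htr1b is at -0.45 in both panels, and Htr6 is at 0.29 in males and at 0.02 in females.

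Htr6, which encodes a Gs-coupled receptor found almost only in the brain, was higher in male MO than in male SAL before adjustment. Its normalized counts were 58.2 (PFC10), 51.9 (PFC11), 50.2 (PFC13), 47.9 (PFC15), 53.1 (PFC17) and 56.5 (PFC19) in male MO, against 44.8 (PFC9), 43.4 (PFC12), 35.7 (PFC14), 47.6 (PFC16), 49.9 (PFC18) and 39.3 (PFC20) in male SAL. Of the 6 MO libraries 5 were above the highest SAL library, and PFC15 was the exception. The means were 53.0 ± 3.85 against 43.5 ± 5.26 (SD, n = 6 each), a log2 difference of 0.29 (SE 0.12, 95% interval 0.04 to 0.53, 2-sided exact permutation p = 0.00433, limma p = 0.0254, adjusted p = 1.00).

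The difference of Htr6 in males was 0.23 to 0.33 as each of the 12 libraries was left out. Its limma p was then 0.0653 without PFC14, 0.0558 without PFC10 and 0.0522 without PFC20, and it was 0.0693 after scaling to Gapdh and Ppia. The log2 difference was 0.27 among libraries not marked combined (4 MO against 5 SAL), 0.29 among those marked (2 MO against 1 SAL), and 0.30 with the transcript score as a term. The spread within male MO, a coefficient of variation of 7.26%, was below the 13.9% that counting would give.

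In females Htr6 had 41.6 (PFC1), 51.7 (PFC3), 43.2 (PFC5), 47.9 (PFC8), 32.7 (PFC21) and 51.3 (PFC23) in MO, against 44.4 (PFC2), 38.8 (PFC4), 34.3 (PFC6), 44.97 (PFC7), 45.4 (PFC22) and 57.8 (PFC24) in SAL. The groups overlapped throughout. The female difference was 0.18 among libraries marked combined (4 MO against 4 SAL) and -0.31 among the others (2 MO against 2 SAL). Over all 12 the log2 difference was 0.02 (95% interval -0.31 to 0.34, exact permutation p = 0.907). The difference between the sexes, female minus male, was -0.27 (95% interval -0.65 to 0.11). The limma interaction had an unadjusted p of 0.156 and an adjusted p of 1.00, so the male and female differences were not shown to be unlike.

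The other Gs-coupled receptor genes did not pass the test. Htr4 had the highest coefficient of variation of the 10 in every group but female SAL, where it was 29.9% and that of Htr1f 41.0%. In male MO it ran from 15.03 over a median of 27.5 to 48.4, against 19.1, 25.5 and 50.5 in male SAL, and in female MO from 6.24 over 17.2 to 34.6, against 16.8, 23.9 and 36.3 in female SAL. Its log2 differences were -0.16 (95% interval -0.75 to 0.44) in males and -0.46 (-1.18 to 0.25) in females, with exact permutation p of 0.643 and 0.266. The female difference was -0.20 without PFC1, which held the lowest Htr4, and -0.21 with libraries weighted by quality. Htr7 averaged 120.6 ± 29.0 in male MO against 121.2 ± 13.9 in male SAL and 113.3 ± 21.6 in female MO against 121.8 ± 9.23 in female SAL, with differences of -0.03 (-0.30 to 0.24, exact p = 0.848) and -0.12 (-0.38 to 0.14, exact p = 0.329).

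Of the Gq-coupled pair, Htr2a had lower and Htr2c higher means in MO in both sexes, and neither passed the test in either. Htr2a had 249.1, 175.7, 213.8, 243.5, 181.8 and 168.5 in female MO (PFC1, PFC3, PFC5, PFC8, PFC21 and PFC23), against 264.3, 204.0, 249.1, 161.7, 338.2 and 349.9 in female SAL (PFC2, PFC4, PFC6, PFC7, PFC22 and PFC24). All 6 MO libraries were below the SAL mean, and the lowest value of all was a SAL library, PFC7. The log2 difference was -0.31 (SE 0.17, 95% interval -0.68 to 0.06, exact permutation p = 0.158). Without PFC7 it was -0.44 with a limma p of 0.0116, and without PFC1 it was -0.37 with a limma p of 0.0491. Only these 2 of 21 alternative treatments had a limma p under 0.05. In males it was -0.12 (-0.43 to 0.19, exact p = 0.524), and 0.0025 with the transcript score as a term.

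Htr2c averaged 478.5 ± 42.5 in male MO against 441.2 ± 41.1 in male SAL and 479.5 ± 98.3 in female MO against 420.1 ± 73.1 in female SAL (SD, n = 6 each). In males 5 of 6 and in females 4 of 6 MO libraries were above the SAL mean. The log2 differences were 0.12 (95% interval -0.03 to 0.27, exact permutation p = 0.145) in males and 0.18 (-0.12 to 0.49, exact p = 0.294) in females. In males 4 of 21 alternative treatments had a limma p under 0.05, at differences of 0.15 to 0.16. The p was 0.0277 without PFC16, 0.0400 without PFC17, 0.0355 with libraries weighted by quality and 0.0224 with the transcript score as a term. The lowest female library was PFC2 at 293.2, in SAL, and without it the female difference was 0.08.

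The other Gi-coupled genes did not pass the test over all libraries. Htr5a averaged 385.5 ± 36.9 in male MO against 410.4 ± 19.9 in male SAL, a difference of -0.09 (95% interval -0.23 to 0.04, exact permutation p = 0.165). In females it averaged 322.0 ± 58.1 in MO against 351.8 ± 50.6 in SAL, a difference of -0.14 (-0.41 to 0.14, exact p = 0.390) that was -0.03 without PFC1. Without PFC11 the male difference was -0.14 with a limma p of 0.0350, the only 1 of 21 alternative treatments under 0.05. Htr1a differed by 0.09 in males (-0.10 to 0.27, exact p = 0.390) and by -0.11 in females (-0.28 to 0.07, exact p = 0.210), and the difference between the sexes was not past the threshold (limma interaction p = 0.135). Htr1f, with a range of 32.9 to 53.7 in MO females against 22.5 to 63.4 in SAL females, differed by 0.04 in females (-0.45 to 0.53, exact p = 0.874) and by -0.11 in males (-0.39 to 0.18, exact p = 0.374).

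Htr3a, the channel subunit, averaged 137.8 ± 14.5 in male MO against 136.0 ± 16.9 in male SAL and 137.0 ± 27.2 in female MO against 145.6 ± 21.6 in female SAL. The log2 differences were 0.02 (95% interval -0.19 to 0.23, exact permutation p = 0.807) and -0.10 (-0.41 to 0.21, exact p = 0.561). The intervals of the 9 genes held 0 in both sexes, except that of Htr6 in males, and the widest, that of Htr4 in females, reached -1.18.

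The family has 4 further genes in the tables, all at low normalized counts. Per kb of its longest transcript Htr5b stood at 8.30 in male MO, 5.84 in male SAL, 5.30 in female MO and 6.12 in female SAL. That mean was above the 7.69 of Htr1b in male MO, and above that of Htr4 in every group but male SAL. Htr5b, which in mice encodes a relative of the Htr5a product, had 18.5 (PFC10), 14.5 (PFC11), 21.6 (PFC13), 14.9 (PFC15), 12.5 (PFC17) and 14.3 (PFC19) in male MO, against 8.94 (PFC9), 13.3 (PFC12), 6.87 (PFC14), 16.7 (PFC16), 13.3 (PFC18) and 8.67 (PFC20) in male SAL. All 6 MO libraries were above the SAL mean, 2 of them above all SAL libraries, at a log2 difference of 0.51 (SE 0.22, exact permutation p = 0.0476, limma adjusted p = 1.00). In females it averaged 10.3 ± 3.13 in MO against 11.9 ± 3.995 in SAL, a difference of -0.19 (exact p = 0.502, limma interaction between the sexes p = 0.0561). Htr1d averaged 7.64 in male MO against 8.75 in male SAL and 7.99 in female MO against 7.97 in female SAL. The female MO library PFC1 alone held 26.1, and the female log2 difference was -0.52 (exact permutation p = 0.426). Htr2b and Htr3b averaged about 1 normalized count or less in every group and were left out of the test within each sex.

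Genes that make, carry and break down serotonin, and those that relay its receptors, did not pass the test within either sex. Of 10 genes of synthesis, transport and breakdown 9 could be tested. In either sex 0 of the 9 had an unadjusted p under 0.05, beside 2.85% of all genes in males and 2.93% in females. The smallest was that of Maoa, a monoamine oxidase, with 735.0 in female MO against 665.9 in female SAL (log2 difference 0.14, exact permutation p = 0.104). Maoa averaged 725.5 in male MO against 703.2 in male SAL, and with the sexes together its log2 difference was 0.09 (95% interval 0.0014 to 0.18). The limma fit over the 24 libraries gave Maoa an unadjusted p of 0.0467 and an adjusted p of 0.847. The 24 genes of G proteins, adenylyl cyclases, phospholipases, potassium channels, arrestins and an adaptor had median differences of -0.01 in males and -0.04 in females. Of these 0 had an unadjusted p under 0.05 in either sex or with the sexes together. Over all genes that share was 2.85% in males, 2.93% in females and 4.72% with the sexes together, so few such genes would be met in lists of this size. The smallest p in males was that of Arrb2, an arrestin, with 521.9 in MO against 483.1 in SAL (log2 difference 0.11, exact p = 0.0519). The mean of the 24 genes followed Htr1b across libraries at r = 0.76, group-centred.

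Genes that report neuronal activity and markers of other cells were set beside the receptors, and their part in the values of Htr1b and Htr6 was not tested. All 10 activity-regulated genes, which neurons switch on when they fire, had differences below 0 in both sexes, with medians of -0.62 in males and -0.53 in females, and 10 had an unadjusted limma p under 0.05 in males and 0 in females, beside 2.85% and 2.93% of all genes. The list was chosen with earlier results of these data known, and its genes are not independent, so the count is not a test against that share. By the exact permutation test 6 of the 10 were under 0.05 in males, with Fosb, Junb, Egr4 and Dusp1 between 0.0584 and 0.0909, and the adjusted limma p was 1.00 for each. Their summed normalized counts ran from 6981 over a median of 13414 to 21619 in male MO, against 18461, 20899 and 22557 in male SAL, and from 5882 over 15733 to 21429 in female MO, against 9317, 20367 and 22081 in female SAL. Arc, which encodes a synaptic protein, averaged 3130 in male MO against 5427 in male SAL, and Egr1, a transcription factor, 5566 against 7690. Within groups Htr1b correlated with the mean of these 10 genes at r = 0.26.

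All 6 oligodendrocyte genes had differences above 0 in both sexes. None had an unadjusted p under 0.05, beside 2.85% of all genes in males and 2.93% in females. Their sums ran from 37988 over a median of 65973 to 134475 in male MO, against 44660, 55414 and 77159 in male SAL, and from 44797 over 62717 to 295945 in female MO, against 30153, 74359 and 133188 in female SAL. The highest of all was PFC1. Htr1b correlated with their mean at r = -0.51 and Htr6 at -0.12, group-centred over 24 libraries. Sums of 12 striatal genes ran from 3323 over a median of 4179 to 6087 in male MO, against 3554, 3873 and 8691 in male SAL, and from 3599 over 3794 to 10071 in female MO, against 3678, 4029 and 4825 in female SAL, and Htr1b correlated with their mean at r = -0.21.

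Of 6 genes of endothelium and blood, 3 had differences above 0 in males and 6 in females. Their sums ran from 4718 over a median of 6815 to 8322 in male MO, against 3186, 5028 and 8819 in male SAL, and from 5022 over 7104 to 9919 in female MO, against 3272, 5367 and 8487 in female SAL. Pecam1, an adhesion protein of endothelium, averaged 374.4 in female MO against 292.9 in female SAL (exact permutation p = 0.0260, adjusted limma p = 0.918), and Flt1, a receptor of vascular growth factors, 992.4 against 855.8 (exact p = 0.0519, limma p = 0.0286). In males the globin gene Hba-a1 averaged 4823 in MO against 3320 in SAL (exact p = 0.102, limma p = 0.0310) and Hbb-bs 4.04 against 40.7 (exact p = 0.0606, limma p = 0.0144). Hbb-bs was low and uneven, from 0 to 24.2 in male MO and from 0 to 82.1 in male SAL. In females Hbb-bs went the other way, with means of 40.2 in MO and 11.2 in SAL, and ranges of 0 to 216.2 and 0 to 67.2. Htr1b correlated with the mean of the genes of endothelium and blood at r = -0.16, with that of microglial genes at -0.44 and with that of astrocyte genes at -0.39, group-centred. Its correlation was 0.55 with markers of Pvalb and Sst interneurons, 0.22 with deep-layer, 0.21 with upper-layer and 0.17 with Htr3a-class interneuron genes. With markers of septum, thalamus and raphe neurons it was -0.28, and with those of the choroid plexus -0.08. All 6 microglial and all 6 astrocyte genes had differences above 0 in females and 2 of 6 of each in males. None had an unadjusted limma p under 0.05, beside 2.85% of all genes in males and 2.93% in females. In females the median of the microglial sums was nevertheless lower in MO, at 5699 against 6277 in SAL, with highest libraries of 9935 and 7369. The median of the astrocyte sums was 73597 in female MO against 66361 in female SAL.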

How the data were processed

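Per the labels and the study's methods, polyadenylated RNA of 24 mPFC samples was made into directional libraries and read as single 85-base reads. The authors used STAR for alignment to mm10, Salmon for quantification and DESeq2 for normalization. The deposited values, 1 table for each sex with 24972 genes, are a signal, the authors' normalized counts. They are not whole numbers. Low values lay near 1 step per library, but only 24.0% to 81.7% of values under 20 were within 0.02 of a whole multiple, so raw counts were not recovered, and reads per library are not known. The normalized sums set no exact precision, and intervals cover the spread between libraries only.

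Values were taken as log2(value + 1). The fit held genes with a sum of 10 or more across its libraries (males, 16662 genes; females, 16717; the sexes together, 17303), and MO was compared with SAL by limma 3.58.1 in R 4.3.3 (empirical Bayes with trend, Benjamini-Hochberg over all genes kept). Single receptor genes other than Htr1b were also tested by 2-sided exact permutation over 924 relabellings. The script was tested on simulated data. Correlations used log2 values centred on the 4 group means. Transcript lengths are of GENCODE M21, and gene positions and promoter windows of RefSeq (GRCm38.p6), as the authors' build. Figures used Python 3.11.15 and matplotlib 3.10.9.

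Samples were grouped by sex and treatment as labelled. Where litters are not given, p-values measure the spread between these samples only. The members and gene lists were chosen with earlier results of these data known. The genes named were the 10 members, 4 other family genes, up to 4 of each list with the smallest unadjusted p, and the 5 genes most like and 3 most opposite to Htr1b, of which 1 is not reported here. Slc6a4, Tph2, Folr1, Kl and some of those from lists were named after their values were seen. Alternatives were pseudocounts of 0.5 and 5, no filter, a mean of at least 10, array weights, a term for combined libraries, scaling to Gapdh and Ppia, the ratio of group means, and leaving out each library. A term for the transcript score, and splitting by the word combined, were chosen after seeing the data.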

Additional observations from a re-analysis of the deposited data

Results flagged for a closer look

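In 68 sets of 6 libraries (the 10 receptor genes, 6 gene lists and the transcript score, each in 4 groups), 4 had a library whose gap to its nearest neighbour, as a share of the range of its group, was past Dixon's 95% critical value. Chance flags about 1 in 20 such groups. Htr5a was 372.4 in the male SAL library PFC9, against 408.0 to 427.0 in the other 5. The summed activity-regulated genes were 9317 in the female SAL library PFC6, against 18853 to 22081 in the others. The summed striatal projection neuron genes were 8691 in the male SAL library PFC16, against 3554 to 4159, and 10071 in the female MO library PFC1, against 3599 to 4087. None of the 9 receptor genes tested had an unadjusted limma p under 0.05 for the difference between the sexes, and the smallest was 0.135, for Htr1a.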

How the results depend on the processing

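No paired analysis was possible, because which libraries share a litter is not given and each replicate number belongs to 1 library only. Under every alternative 0 genes passed an adjusted p of 0.05 in either sex. Htr1b was below 0 in males and females, the direction on which it was chosen. At an unadjusted p under 0.05, scaling to Gapdh and Ppia gave 97 genes higher in male MO, and 623 higher and 47 lower in female MO, against 222, 302 and 188. Without each library in turn, the counts ran from 179 to 314 higher and 200 to 371 lower in males, and from 208 (without PFC1) to 507 (without PFC21) higher and 136 (without PFC4) to 359 (without PFC8) lower in females. Without each library in turn, Htr1b ran from -0.60 to -0.32 in males and from -0.53 to -0.32 in females, and Htr6 from 0.23 to 0.33 in males.

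Differences near 0 changed sign. In males Htr3a was -0.016 with array weights, -0.0068 after scaling to Gapdh and Ppia, -0.0082 with the transcript score as a term, and -0.029 to 0.078 without each library. Htr2a in males was 0.0025 with the transcript score as a term. Htr7 in males was -0.14 to 0.021, Htr6 in females -0.052 to 0.10, and Htr1f in females -0.11 to 0.18 without each library, and Htr1f in females was -0.034 as a ratio of group means. The causes were not tested. Group means of 30.2 to 53.0 normalized counts for Htr1b, Htr1f and Htr6, and lower ones for Htr4, limit what 6 libraries can show.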
